A study of Homo sapiens with 12 samples.

Results

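The response of A375 cells to interferon-γ (IFNγ) given without SB-3CT was examined in 6 of the 12 RNA samples of the series, namely 3 samples of cells cultured with IFNγ for 24 h and 3 control samples whose label gives no treatment. A375 is an established human melanoma cell line, so all 6 samples came from a single cultured line. SB-3CT, an inhibitor of the gelatinases MMP2 and MMP9, was given to the other 6 samples, with or without IFNγ. The dose of IFNγ and whether the 3 replicates of a group were separate cultures were not given in the labels, so the p-values measure only the spread between these samples, which may be technical. The table used here covers 4918 genes, alphabetically between A1BG and FAM46B, in FPKM, a measure of level in which the fragments of a gene are divided by the length of its transcript and by the library total, and genes later in the alphabet were not analysed here.

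IFNγ is a cytokine secreted by T cells and natural killer cells. Its receptor signals through the kinases JAK1 and JAK2 to the nucleus, where genes are switched on through the gamma-activated site (GAS), and interferon regulatory factors made in the first wave bind the interferon-stimulated response element (ISRE). In tumor cells the program is known for raising antigen presentation, antiviral factors and T cell chemokines, together with PD-L1 (gene CD274), the ligand of the inhibitory receptor PD-1.

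The FPKM of the 4918 genes summed to 121928 to 124346 in the control samples and to 122601 to 124670 in the IFNγ samples. The smallest steps between low FPKM values gave depths of 96 to 107% of the mean control in the control samples and of 149, 118 and 87% in IFNγ samples 1, 2 and 3. IFNγ sample 1 lay 0.095 above the other IFNγ samples in the median gene, on the log2 scale, and IFNγ sample 2 lay 0.104 below, whereas each of the other 4 samples lay within 0.028 of its group. Pearson's r between samples of a group was 0.9961 to 0.9976 across genes, which are not independent replicates. Of the melanocytic markers, CD63, CSPG4 and ERBB3 were well expressed in all 6 samples and DCT was low, with a mean of 0.278 FPKM in the control samples and 0.154 FPKM in the IFNγ samples. CAPN3 (0.25 and 0.0393 FPKM), BIRC7 (0.318 and 0.0558 FPKM) and CITED1 (0.9 and 1.19 FPKM) were low as well. EDNRB (5.83 and 6.67 FPKM) and BCAN (4.87 and 4.8 FPKM) lay between. The 9 melanocytic markers, all measured, summed to 731 to 818 FPKM in control samples and to 689 to 730 FPKM with IFNγ, most of it CD63. Of 8 T cell markers, the 4 measured, CD3D, CD4, CD8A and CD247, summed to at most 0.479 FPKM in any sample.

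After 24 h of IFNγ the transcripts at rank 1 and 2 of all measured genes by mean FPKM were those of B2M, the light chain of MHC class I, and CD74, the invariant chain of MHC class II. The largest rises were in BST2 (tetherin, which holds budding viruses at the cell surface), the T cell chemokine CXCL10, the complement protease C1S and the lysosomal protease CTSS. The largest falls were smaller, led by the ether lipid-cleaving enzyme AGMO, the chitinase-like CHI3L2 and the long non-coding RNA DANCR. Under limma with Benjamini-Hochberg adjustment over all genes, 416 genes (8.46% of those tested) were higher and 542 (11%) were lower at an adjusted p-value under 0.05, 958 (19.5%) in all. Setting the samples to a common median ratio, which moved the median change from -0.044 to -0.003 on the log2 scale among genes with a mean of at least 1 FPKM, turned this split into 596 higher and 500 lower genes. With a fold change over 1.5 on the log2(FPKM + 1) scale as well, 155 genes (3.15%) were higher and 74 (1.5%) lower. Changes over 1 on the log2 scale were found in 77 higher and 14 lower genes, and changes over 2 in 35 higher genes and 0 lower genes.

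The counts without a fold limit depended on single samples. They fell to 276 higher and 286 lower genes without control sample 3, to 277 and 319 without control sample 2, to 271 and 315 without IFNγ sample 3, and to 282 and 296 without control sample 1. With the fold limit, the 6 sets that lacked a sample gave 141 to 167 higher and 65 to 84 lower genes. Of the 155 genes higher by over 1.5-fold, 50 had a control mean below 1 FPKM and 2 were listed at 0 in all 3 control samples, so that their change on this scale understates the ratio.

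**Figure D1:**
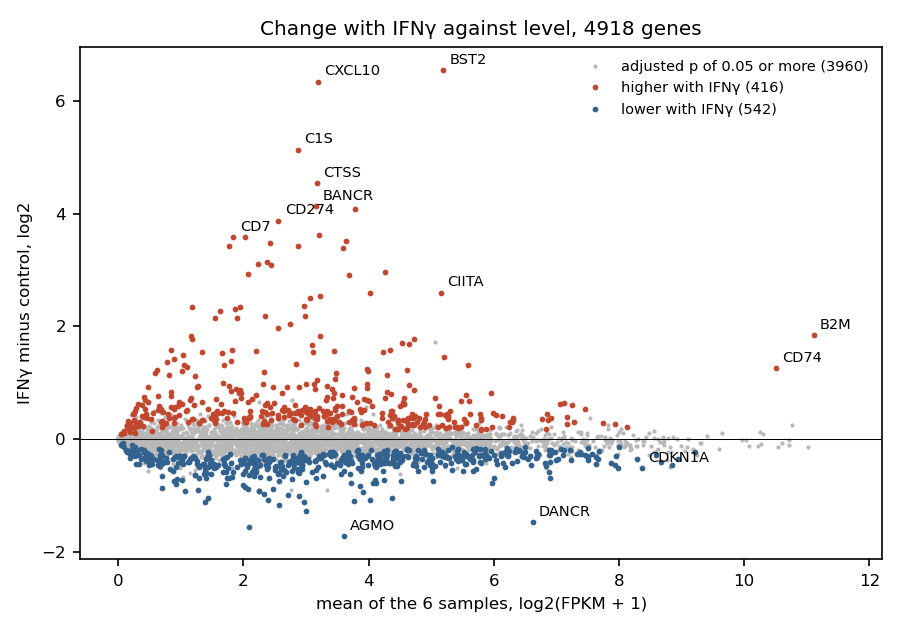
Change with IFNγ (IFNγ minus control, on the log2(FPKM + 1) scale) against the mean log2(FPKM + 1) of the 6 samples, with 1 point for each of the 4918 genes. Red points were higher (416) and blue points lower (542) at an adjusted p-value under 0.05, grey points did not pass, and only red points lie more than 2 from the zero line.

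The promoters of genes that rose are shown first, because the 2 motifs of the pathway can be read in them directly. A window from 250 bases before to 50 bases after the start site was given by RefSeq (GRCh38.p14) for 3765 of the 4918 genes, with 5575 windows in all. The motifs searched, on both strands, were the ISRE core, which is GAAA, then NN, then GAAA (TTTC, NN, TTTC on the other strand), and the GAS TTCNNNGAA, and matches could overlap. Either motif was found in 8.79% of all 5575 windows, which is a share of windows and not of genes. Some of the named rises were chosen after their values were seen. A match was found for 25 of the 70 named rises with a window. The stretches below were taken from those with a match, among strong or abundant responders, each on the strand of its gene, 5′ to 3′, with the matching bases in capitals and 15 bases on either side.
BST2: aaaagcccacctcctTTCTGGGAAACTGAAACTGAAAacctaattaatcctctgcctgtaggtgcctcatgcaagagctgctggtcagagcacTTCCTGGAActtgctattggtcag
CXCL10: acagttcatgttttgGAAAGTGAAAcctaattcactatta
CD274: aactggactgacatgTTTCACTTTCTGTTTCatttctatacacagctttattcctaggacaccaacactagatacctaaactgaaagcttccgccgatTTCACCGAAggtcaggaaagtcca
DDX60: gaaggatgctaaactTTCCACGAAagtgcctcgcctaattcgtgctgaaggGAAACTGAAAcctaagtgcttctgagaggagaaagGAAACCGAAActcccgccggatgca
EPSTI1: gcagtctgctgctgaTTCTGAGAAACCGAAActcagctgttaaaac
B2M: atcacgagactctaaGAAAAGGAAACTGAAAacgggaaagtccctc
AIM2: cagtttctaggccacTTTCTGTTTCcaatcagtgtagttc
BCL2A1: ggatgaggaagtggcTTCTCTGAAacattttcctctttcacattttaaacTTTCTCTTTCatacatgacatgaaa
These lie at chr19:17405665-17405781 (minus strand), chr4:76023694-76023733 (minus), chr9:5450319-5450440 (plus), chr4:168318781-168318891 (minus), chr13:42992267-42992312 (minus), chr15:44711358-44711403 (plus), chr1:159076932-159076971 (minus) and chr15:79971305-79971379 (minus) of GRCh38.p14, all before the start site of the gene. The BST2 stretch holds 2 ISRE cores and 2 GAS matches, in part overlapping, and the CD274 stretch holds 2 ISRE cores and 1 GAS match. B2M has 2 overlapping ISRE cores, and in EPSTI1 a GAS match runs into an ISRE core.

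Over whole groups of genes, an ISRE core was found in 2.55% and a GAS match in 6.55% of the 5575 windows. Among genes higher by over 1.5-fold, 14.5% of 152 windows (104 genes) held an ISRE core and 16.4% a GAS match. Among genes higher by over 4-fold the shares were 36% for each motif, in only 25 windows of 17 genes. Genes higher by 1.5-fold or less had shares of 2.48% and 7.45%, and genes lower by over 1.5-fold had 1.85% and 4.63%, both close to the values over all windows. The shares among genes higher by over 1.5-fold were 13.8 to 14.9% for the ISRE core and 16.0 to 16.8% for GAS under median ratio scaling, quantile normalization and removal of the length trend. These shares describe the letters in the windows and were not tested, and several windows can belong to the same gene.

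**Figure D2:**
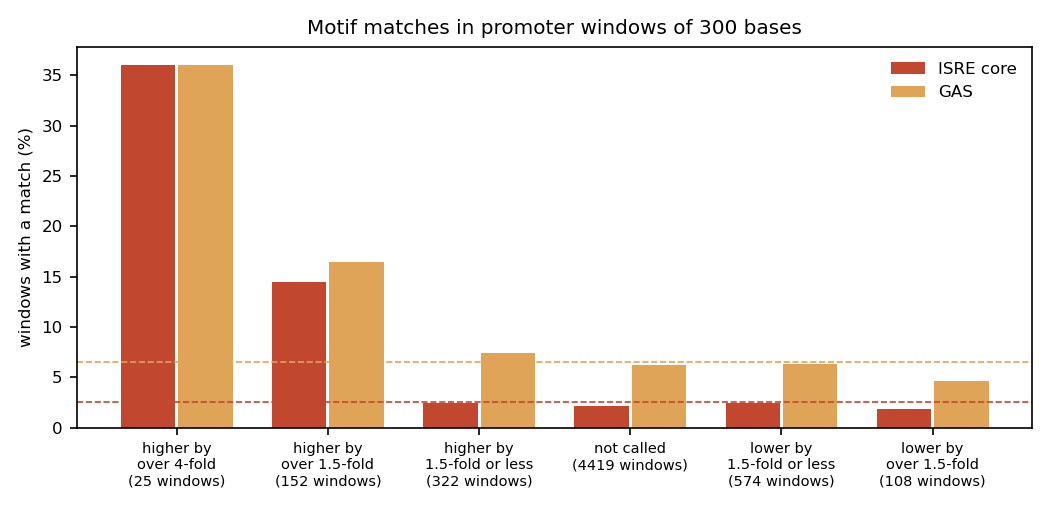
Share of RefSeq promoter windows (percent, vertical axis, from 0) with at least 1 ISRE core (red) or GAS match (yellow), by the change of the gene with IFNγ; the dashed lines are the shares over all 5575 windows. The class over 4-fold is part of the class over 1.5-fold, and both bars rise above the dashed lines in these 2 classes, to 36% in the class over 4-fold.

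Of the 52 genes written down as known IFNγ targets, 43 were measured. Of these, 37 (86%) were higher and 1 (2.33%) was lower, against 8.46 and 11% over all genes. The median change was 1.98 on the log2 scale against -0.02 over all genes. The members are textbook targets listed with earlier results of these data known, so the count describes them and is no independent support. The member that was lower was CDKN1A, which encodes the cell cycle inhibitor p21: it stood at 392, 390 and 402 FPKM in the control samples and at 285, 266 and 273 FPKM with IFNγ (log2 change -0.52 ± 0.04 (SE), adjusted p = 0.000815). Among the 5 members that did not pass were BTG1, CASP8, CMKLR1 and APOL2.

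BST2 was at 2.44, 2.35 and 3.68 FPKM in the control samples and at 358, 344 and 357 FPKM with IFNγ. This was the largest rise (log2 change 6.55 ± 0.13 (SE), adjusted p = 1.57e-06), and it moved BST2 from rank 2625 to rank 51 by mean FPKM. CXCL10, the CXCR3 ligand used as a reference for the response, went from 0, 0 and 0.05 FPKM to 78.7, 86.2 and 80.3 FPKM. CD274, the second reference, went from 0.565, 0.428 and 0.635 FPKM to 23.9, 19.3 and 21.9 FPKM (log2 change 3.88 ± 0.10, adjusted p = 3.87e-06). In bulk RNA, a larger share of responding cells and more RNA per cell cannot be told apart. Neither gene overlapped between the groups, a separation seen upward in 15% and downward in 22% of all genes.

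**Figure D3:**
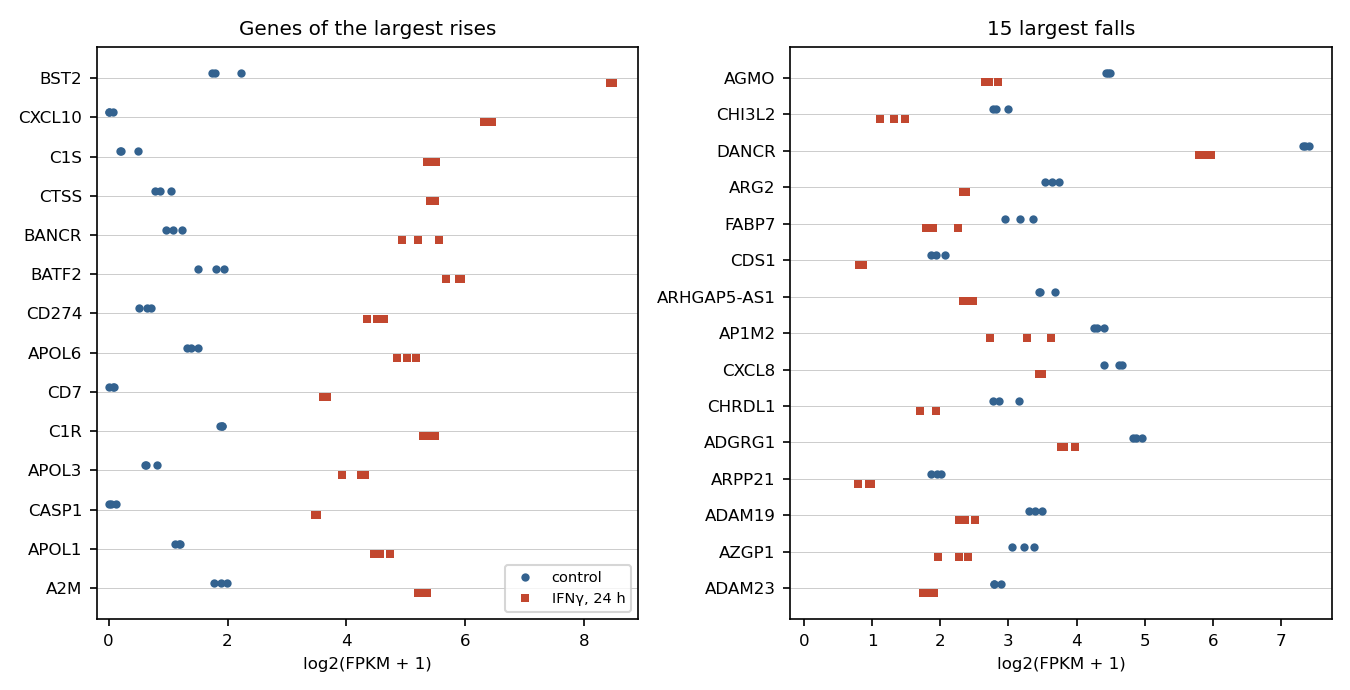
Level in each of the 6 samples, as log2(FPKM + 1), for genes among the 15 largest rises (left) and for the 15 largest falls (right), with control samples as blue circles and IFNγ samples as red squares. The groups are apart for all these genes, as the rule for naming them required, and the gaps are wider on the left, where BST2 and CXCL10 differ by 6.55 and 6.35.

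Of 18 measured antigen presentation genes, 8 (44.4%) were higher and 3 (16.7%) lower, against 8.46 and 11% over all genes. The median change of the list was 0.11. B2M rose from 1139, 1242 and 1104 FPKM to 4104, 4377 and 4086 FPKM (log2 change 1.85 ± 0.08, adjusted p = 2.34e-05), and its share of the summed FPKM of all 4918 genes went from 0.943 to 3.4%. CD74 rose from 899, 921 and 986 FPKM to 2338, 2143 and 2261 FPKM (1.26 ± 0.07, adjusted p = 0.000102). B2M and CD74 together took 1.70% of the summed FPKM in control samples and 5.22% with IFNγ. Since FPKM are relative to the total, such a gain leaves less for the other genes, and its part in the many small falls was not tested. CIITA, the transcriptional master switch of MHC class II genes, was already at 12.7 to 14.3 FPKM in the control samples and reached 80.2 to 92.0 FPKM (2.60 ± 0.07, adjusted p = 3.87e-06).

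Among the proteases of antigen processing, CTSS, which trims the invariant chain in the class II pathway, went from 0.713, 0.819 and 1.08 FPKM to 44, 41.4 and 42.3 FPKM (4.55 ± 0.08). The aminopeptidases that trim class I peptides in the endoplasmic reticulum both rose, ERAP1 from a mean of 10.7 to 34.1 FPKM (1.58) and ERAP2 from 0.382 to 2.37 FPKM (1.28). CTSO, a further cysteine cathepsin, rose from 0.494 to 3.35 FPKM (1.54). The lysosomal aspartic protease CTSD (136 ± 4.98 (SD) to 115 ± 0.667 FPKM, n = 3), CTSH (7.15 to 4.99 FPKM) and the lipid antigen presenter CD1D (1.21 to 0.772 FPKM) were the 3 lower members. Without control sample 3 or any 1 of the IFNγ samples a single member was lower, since the calls of CTSH and CD1D were lost; CTSH was also lost under median ratio scaling.

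Of 21 measured surface ligands and receptors of immune recognition, 9 (42.9%) were higher and 3 (14.3%) lower, against 8.46 and 11% over all genes. The median change was 0.29. Beside CD274, the adhesion molecule and inhibitory ligand CEACAM1 rose from 0.690, 0.985 and 0.918 FPKM to 16.0, 13.4 and 15.2 FPKM (3.09 ± 0.10). CD40, the costimulatory receptor of antigen-presenting cells, rose from 2.21, 2.20 and 2.50 FPKM to 13, 12 and 13 FPKM (2.05 ± 0.07). CD47, which signals to macrophages not to engulf the cell, rose from 11.1, 12 and 12.6 FPKM to 43.6, 40.1 and 39.1 FPKM (1.70 ± 0.06). The samples of each of these genes were clear of those of the other group. By contrast the tetraspanin CD9 fell from 147, 159 and 145 FPKM to 89.6, 94.2 and 95.7 FPKM (-0.69 ± 0.05), and CD276 (B7-H3), a checkpoint molecule of the same family as PD-L1, fell from a mean of 54.5 to 44.5 FPKM (-0.29 ± 0.04, adjusted p = 0.00336). CD109 was also lower (23.8 to 18.6 FPKM, -0.34), a call that was kept without IFNγ sample 1 and lost without any of the other 5 samples.

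CD7, a surface protein best known from T cells and natural killer cells, rose from 0, 0.0692 and 0.0474 FPKM to 11.7, 11.2 and 11.3 FPKM (3.58 ± 0.06, adjusted p = 1.57e-06). It was among the 15 largest rises, while the 4 T cell markers summed to 0.0639 to 0.194 FPKM in the IFNγ samples. Of 10 myeloid markers 4 were measured. The summed level of these, CD14, CD33, CD68 and CSF1R, went from 21.9 to 24.2 FPKM in control samples to 28.1 to 33.3 FPKM with IFNγ. Most of this was CD68, a lysosomal glycoprotein (21.4 to 29.4 FPKM), and CSF1R and CD14 had means of 0.342 and 0.137 FPKM with IFNγ. The part of these markers in the rise of CD7 and CSF1 was not tested.

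Of 28 chemokines, cytokines and growth factors measured, 7 (25%) were higher and 2 (7.14%) lower, against 8.46 and 11% over all genes. The median change was -0.00, so the rises were of a few members. CSF1, the growth factor of macrophages, rose from 3.43, 3.72 and 3.90 FPKM to 37.5, 31.6 and 34.0 FPKM (2.91 ± 0.08). The T cell and monocyte chemokines CCL5 (0.133 to 2.05 FPKM, 1.42), CX3CL1 (0.192 to 1.60 FPKM, 1.13), CXCL16 (3.54 to 10.4 FPKM, 1.33) and CCL2 (6.95 to 13.6 FPKM, 0.88) also rose. CXCL8, the neutrophil chemokine interleukin-8, which the list does not hold, went the other way, from 24.5, 23.6 and 20.1 FPKM to 9.93, 10.3 and 10.3 FPKM (-1.08 ± 0.08, adjusted p = 0.000428). The 2 lower members of the list were BMP4, a ligand of the TGF-β superfamily (1.5 to 0.437 FPKM, -0.80), and AREG, a ligand of the epidermal growth factor receptor (1.48 to 0.516 FPKM, -0.71).

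Most antiviral effectors rose: 21 of 23 measured members (91.3%) were higher and 0 lower, against 8.46 and 11% over all genes. The median change was 1.21. The cytosolic RNA sensors and their regulators all rose: DDX58 (RIG-I) from a mean of 0.607 to 12.9 FPKM (3.11), DHX58 (LGP2) from 1.37 to 9.81 FPKM (2.19), and the kinase EIF2AK2 (PKR) from 9.47 to 23.3 FPKM (1.21). The DNA sensor AIM2 went from 5.70, 6.54 and 5.41 FPKM to 55.3, 50.4 and 53.1 FPKM (2.97 ± 0.07). CMPK2, a mitochondrial nucleotide kinase, rose from 0.532 to 10.7 FPKM (2.93), and DTX3L, a ubiquitin ligase, from 5.60 to 38.9 FPKM (2.59). EPSTI1 was listed at 0 in 2 of 3 control samples and at 0.0208 FPKM in the third, and reached 3.99, 3.60 and 4.78 FPKM. ADAR, the editing enzyme that marks double-stranded RNA as self, went from 30.0, 28.7 and 29.9 FPKM to 84.2, 66.1 and 75.4 FPKM (1.31 ± 0.09). Smaller rises were seen in the cap methyltransferase CMTR1 (10.9 to 18.5 FPKM, 0.71) and in C19orf66, an inhibitor of viral translation (9.25 to 23.1 FPKM, 1.24).

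Of the 7 measured APOBEC3 cytidine deaminases, which lie side by side on chromosome 22, 5 passed as higher, by different amounts. Over all genes 8.46% were higher. APOBEC3G went from 13.9, 12.9 and 13.1 FPKM to 47.7, 49.8 and 45.6 FPKM (1.77 ± 0.05), APOBEC3D from a mean of 2.55 to 5.96 FPKM (0.98) and APOBEC3F from 3.01 to 6.67 FPKM (0.93). APOBEC3B rose from 17.5 to 23.5 FPKM (0.41), and APOBEC3C was at 32.2 and 38.6 FPKM (0.25, adjusted p = 0.0471), a call kept without IFNγ sample 2 and lost without any of the other 5 samples. APOBEC3A, at 0.152 and 0.0956 FPKM (-0.06, adjusted p = 0.695), and APOBEC3H, at 1.3 and 1.72 FPKM (0.25, adjusted p = 0.145), did not pass. How reads shared by close paralogs were divided among these genes is not given in the sources used here, so the values of single members are uncertain.

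Complement genes showed large rises in few members: 5 of 17 measured were higher and 2 lower, with a median change of 0.06. These are 29.4 and 11.8% of the list, the latter near the 11% lower over all genes, where 8.46% were higher. C1S and C1R, the serine proteases that start the classical pathway, went from 0.139, 0.156 and 0.412 FPKM to 44.6, 40.0 and 42.9 FPKM (5.14 ± 0.10) and from 2.73, 2.77 and 2.66 FPKM to 43.7, 38.1 and 42.1 FPKM (3.51 ± 0.06). In every control sample C1R was the higher of the pair per length, and with IFNγ both lay between 38.1 and 44.6 FPKM. The central component C3 rose from 2.89 to 21.6 FPKM (2.54). The soluble inhibitor CFI rose as well (7.49 to 11 FPKM, 0.50). The membrane inhibitor CD55 was lower (32.0 to 24.6 FPKM, -0.36, adjusted p = 0.0288), a call lost in 5 of the 6 sets that lacked a sample, all but the one without control sample 1, and the lower count of the list was 0 or 1 in every such set. The protease inhibitor A2M, not in the list, rose from 2.43, 2.71 and 2.96 FPKM to 40.1, 35.8 and 38.6 FPKM (3.4 ± 0.07).

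Of 42 cell death genes measured, 12 (28.6%) were higher and 3 (7.14%) lower, against 8.46 and 11% over all genes. The median change was 0.10. Without control sample 3, 7 of the list were higher. The lower count was 1 without control sample 3 or IFNγ sample 3 and 5 without IFNγ sample 2. The largest rise was in an inflammatory caspase. CASP1, which activates interleukin-1β and gasdermin D, went from 0, 0.0337 and 0.0907 FPKM to 10.1, 10.3 and 10.3 FPKM (3.43 ± 0.07), and a second one, CASP4, which senses cytosolic lipopolysaccharide, from 20.4, 22.3 and 20.9 FPKM to 56.5, 63.3 and 61.0 FPKM (1.46 ± 0.06). CARD16, a CARD-only relative of CASP1, rose from 0.422 to 5.84 FPKM (2.27). It shares much of its sequence with CASP1, and reads may have been divided between them. Among apoptotic caspases, the receptor-linked CASP8 was at 7.96 and 9.54 FPKM (0.22, adjusted p = 0.246). The initiator CASP9 was lower (5.79 to 3.87 FPKM, -0.48), a call lost without control sample 2 or 3 or IFNγ sample 3.

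Within the BCL2 family both kinds of member rose. The survival factor BCL2A1 went from 0.900, 0.990 and 0.463 FPKM to 6.28, 8.28 and 6.11 FPKM (2.15 ± 0.16), and the pore former BAK1 from 26.0, 23.8 and 25.3 FPKM to 43.3, 39.7 and 42.9 FPKM (0.72, adjusted p = 0.000456). The BH3-only factor BBC3 (PUMA) was at 11.3, 20.8 and 20.8 FPKM in control samples and at 33.0, 36.2 and 33.3 FPKM with IFNγ (0.96 ± 0.23, adjusted p = 0.0310). This call was kept without control sample 1, the low sample of its group, and was lost when any of the other 5 samples was left out.

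Apolipoprotein L genes, whose products lyse trypanosomes or act inside the cell, had 4 measured members. APOL6 rose from 1.5, 1.60 and 1.82 FPKM to 35.0, 28.0 and 31.5 FPKM (3.62 ± 0.09), APOL3 from 0.749, 0.543 and 0.529 FPKM to 18.8, 14.2 and 18.0 FPKM (3.48 ± 0.12), and APOL1 from 1.17, 1.26 and 1.31 FPKM to 25.6, 21.1 and 22.7 FPKM (3.42 ± 0.08). APOL2 did not pass: it was at 6.23, 6.46 and 7.09 FPKM in control samples and at 40.5, 7.76 and 11.2 FPKM with IFNγ (1.12 ± 0.55, adjusted p = 0.218). Its IFNγ samples all lay above the control samples but differed from each other far more than those of its neighbours.

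Several genes raised by IFNγ lay next to each other on the chromosome. Of 154 genes higher by over 1.5-fold with a position, 33 (21.4%) had another such gene within 100 kb, against 168 of 4721 other genes (3.56%). Families named alike fall in this stretch of the alphabet together, and overlapping genes share sequence, so the shares are a description. In hg19 coordinates (GENCODE 44), C1S, C1R and CLSTN3 lie within chr12:7096351-7311541, CASP4, CASP1 and CARD16 within chr11:104813593-104972158, APOL3 and APOL1 within chr22:36536377-36663576, and the butyrophilins BTN3A2, BTN2A2, BTN3A1 and BTN3A3 within chr6:26365387-26453643. BTN3A1, whose product presents phosphoantigens to γδ T cells, rose from 1.69 to 7.02 FPKM (1.57), BTN3A2 from 3.82 to 14.4 FPKM (1.67), BTN3A3 from 1.95 to 10.6 FPKM (1.98) and BTN2A2 from 5.30 to 12 FPKM (1.04). BTN2A1 beside them was at 6.0 and 7.63 FPKM (0.29, adjusted p = 0.112, and past the threshold under median ratio scaling with adjusted p = 0.0390).

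Other such neighbours were APOBEC3D, APOBEC3F and APOBEC3G, DDX60 (0.393 to 5.23 FPKM, 2.15) and DDX60L (0.597 to 2.47 FPKM, 1.12), ERAP1 and ERAP2, and the transcription factors ATF3 and BATF3. ART3 (4.76 to 10.3 FPKM, 0.98) encloses CXCL10 on the opposite strand, and CIITA encloses DEXI on the opposite strand (10.5 to 20.7 FPKM, 0.90). Whether the counting used strand is not given in the sources used here. Reads of ART3 and CXCL10, and of CIITA and DEXI, thus cannot be told apart where they overlap.

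**Figure D4:**
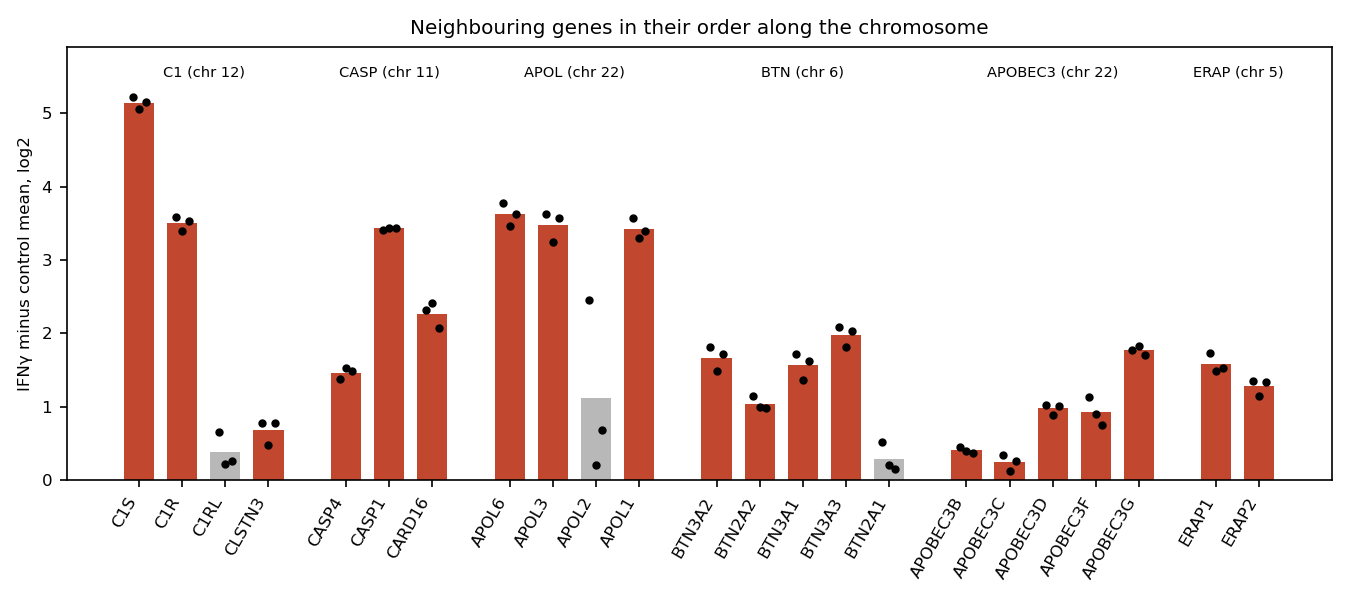
Change with IFNγ (vertical axis, IFNγ minus control mean on the log2(FPKM + 1) scale) for neighbouring genes of 6 regions in their order along the chromosome, evenly spaced. Bars are the mean change, points the 3 IFNγ samples against the control mean, red bars passed at an adjusted p-value under 0.05 and grey bars (C1RL, APOL2, BTN2A1) did not; the 3 points of APOL2 are spread widest.

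Of 30 transcription factors and signalling genes measured, 13 (43.3%) were higher and 3 (10%) lower, against 8.46 and 11% over all genes. The median change was 0.19. BATF2 went from 1.83, 2.50 and 2.82 FPKM to 58.2, 50.1 and 60 FPKM (4.08 ± 0.13), and its relative BATF3, a partner of JUN and IRF factors, from 2.60, 2.46 and 3.09 FPKM to 16.4, 15 and 16.0 FPKM (2.18 ± 0.08). The stress factor ATF3 rose from 4.07 to 13.9 FPKM (1.55). Rises under 1 on the log2 scale were found in ETV6 (1.89 to 4.09 FPKM, 0.82), BCL3 (8.06 to 14.7 FPKM, 0.79) and ETS1 (11.7 to 19.4 FPKM, 0.68). The 3 lower members were BHLHE40 (7.84 to 4.39 FPKM, -0.71) and BHLHE41 (0.611 to 0.297 FPKM, -0.31), a pair of circadian repressors, and the antiproliferative BTG2 (16.1 to 10.9 FPKM, -0.52).

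The changes in growth and metabolism were smaller. Of 37 DNA replication genes, 15 (40.5%) were higher and 0 lower, against 8.46 and 11% over all genes. None of them was higher by over 1.5-fold. The median change was 0.22, with 32 of 37 above 0. The higher genes included the licensing factor CDT1 (16.5 to 23.6 FPKM, 0.50, adjusted p = 0.00480), and the transcription factors E2F7 (5.14 to 7.54 FPKM, 0.48, adjusted p = 0.00421) and E2F1 (21.1 to 26.4 FPKM, 0.31, adjusted p = 0.0154). The count was 3 to 5 when any sample other than IFNγ sample 2 was left out. With median ratio scaling it was 20 higher and 1 lower. In the cells given SB-3CT, 1 of these 37 genes was higher and 11 were lower with IFNγ. Over all genes there, 7.85% were higher and 32.7% lower. Of 47 mitosis genes 3 (6.38%) were higher and 1 (2.13%) was lower, below the 8.46 and 11% over all genes. With median ratio scaling 14 were higher and 0 lower, where 596 of all 4918 genes were higher and 500 lower. Without IFNγ sample 2, 10 mitosis genes were higher and 2 lower, and without any of the other 5 samples 0 or 1 were higher and 0 lower. Of 18 cell cycle inhibitors and p53 targets, 3 (16.7%) were higher and 4 (22.2%) lower, against 8.46 and 11% over all genes. CDKN1A and CCNG1 (53.8 to 39.5 FPKM, -0.44) were among the lower.

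Of 27 lipid synthesis and transport genes measured, 3 (11.1%) were higher and 8 (29.6%) lower, against 8.46 and 11% over all genes. The median change was -0.12, and 5 were lower without control sample 3. Enzymes of cholesterol synthesis were among the falls: DHCR7 went from 19.8, 18.8 and 21.1 FPKM to 9.92, 9.76 and 10 FPKM (-0.94 ± 0.05, adjusted p = 0.000135), ACAT2 from 36.9 to 30.3 FPKM (-0.28), and CYP51A1 from 12.7 to 8.97 FPKM (-0.46, lost without control sample 2 or 3). The acyl-CoA synthetases, which activate fatty acids, were divided. ACSL5 rose from 0.672, 0.826 and 0.715 FPKM to 15.7, 12.9 and 14.8 FPKM (3.15 ± 0.09) and ACSL1 from 5.27 to 11.3 FPKM (0.98), while ACSL3 fell from 38.6 to 25.6 FPKM (-0.57 ± 0.07, adjusted p = 0.00365). AGMO, the tetrahydrobiopterin-dependent enzyme that cleaves ether lipids, fell from 20.7, 21.1 and 21.5 FPKM to 5.31, 6.21 and 5.59 FPKM (-1.72 ± 0.06, adjusted p = 1.59e-05), and CDS1, which makes CDP-diacylglycerol, from 2.89 to 0.781 FPKM (-1.12).

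Of 49 translation factors measured, 14 (28.6%) were lower and 2 (4.08%) higher, against 11 and 8.46% over all genes. The median change was -0.12. In the sets without IFNγ sample 3 or any 1 of the control samples, 7 or 8 were lower and 1 or 2 higher. EEF1A2, a tissue-restricted elongation factor, fell from 41.6 to 24.3 FPKM (-0.75), the initiation factor subunit EIF2B2 from 42.8 to 30.6 FPKM (-0.47) and EIF3E from 286 to 207 FPKM (-0.46). Of 36 ATP synthase and cytochrome c oxidase genes, 8 (22.2%) were lower and 0 higher, against 11 and 8.46% over all genes. The median change was -0.18, with 2 of 36 above 0. The lower count was 3 with median ratio scaling, 16 without IFNγ sample 2, and 2 or 3 when any of the other 5 samples was left out. In the cells given SB-3CT, 20 of these genes were higher and 4 lower with IFNγ, against 7.85 and 32.7% over all genes there. ATP5F1, a stalk subunit of the ATP synthase, was at 128, 129 and 133 FPKM in control samples and at 95.0, 98.2 and 96.6 FPKM with IFNγ (-0.42 ± 0.04, adjusted p = 0.000809).

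Of 21 melanoma lineage and state genes measured, 6 (28.6%) were lower and 2 (9.52%) higher, against 11 and 8.46% over all genes. The median change was -0.08. The proteoglycan CSPG4 fell from 48.0, 48.6 and 49.0 FPKM to 37.7, 36.4 and 37.1 FPKM (-0.38 ± 0.03), and the neuregulin receptor ERBB3 from 56.9, 56.6 and 57.8 FPKM to 45.3, 43.8 and 41.6 FPKM (-0.38 ± 0.04). The Schwann cell cadherin CDH19 fell from 4.66 to 2.57 FPKM (-0.66). AXL, a receptor kinase of dedifferentiated melanoma, rose from 42.8, 40.9 and 39.9 FPKM to 60.3, 52.9 and 56.1 FPKM (0.44 ± 0.06, adjusted p = 0.00404). Outside the list, the brain fatty acid binding protein FABP7, a marker of the neural crest lineage, was at 6.76, 9.27 and 8.02 FPKM in control samples and at 2.46, 3.78 and 2.72 FPKM with IFNγ (-1.18 ± 0.16, adjusted p = 0.00425). Of 22 genes of the MAPK pathway and its output, among them the kinases BRAF and ARAF, 2 were higher and 4 lower, with a median of 0.00. The shares, 9.09 and 18.2%, compare with 8.46 and 11% over all genes; without any 1 of the control samples 1 was higher and 2 were lower, and without IFNγ sample 3 1 was higher. ELK1 rose from 34.3 to 55.2 FPKM (0.67) and CCND1 from 102 to 130 FPKM (0.33, adjusted p = 0.0284), while EGR3 fell from 2.20 to 1.17 FPKM (-0.56).

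Of 37 adhesion and axon guidance genes 11 (29.7%) were lower and 2 (5.41%) higher, against 11 and 8.46% over all genes. The median change was -0.13, and 5 or 6 were lower without IFNγ sample 3 or any 1 of the control samples. The ephrin receptor EPHB3 (3.36 to 1.5 FPKM, -0.80) and the ligand EFNA1 (10.4 to 6.0 FPKM, -0.70) fell, while the receptor EPHB2 rose from 2.24, 2.40 and 2.35 FPKM to 6.87, 6.07 and 6.79 FPKM (1.19 ± 0.07, adjusted p = 0.000159). Of 45 matrix genes, 5 were higher and 7 lower, with a median of -0.03. These shares, 11.1 and 15.6%, lay near the 8.46 and 11% over all genes; 3 were higher without control sample 2 or 3 or IFNγ sample 3. ADAM19, a membrane metalloprotease, fell from 9.51, 8.91 and 10.3 FPKM to 4.71, 3.82 and 4.16 FPKM (-1.02 ± 0.09). The chains of collagen VI went apart, COL6A2 from 18.6, 15.6 and 18.4 FPKM to 27.2, 27.4 and 25.7 FPKM (0.58 ± 0.07, adjusted p = 0.00355) and COL6A1 from 33.5, 34.3 and 34.5 FPKM to 26.5, 24.9 and 24.9 FPKM (-0.41, adjusted p = 0.00161). COL6A2 had the lower level of the pair in every control sample and the higher level in every IFNγ sample.

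Of 27 genes of the stress response 5 were higher and 2 lower, and of 51 chromatin genes 5 were higher and 3 lower, with medians of 0.05 each. The shares were 18.5 and 7.41% of the stress genes and 9.8 and 5.88% of the chromatin genes, the latter near or below the 8.46 and 11% over all genes. For stress genes 0 or 1 were lower in all sets that lacked a sample but the one without IFNγ sample 1. For chromatin genes 2 or 3 were higher without IFNγ sample 3 or any 1 of the control samples and 10 without IFNγ sample 2, and 0 or 1 were lower without control sample 1 or 3 or IFNγ sample 3. The glutathione-degrading CHAC1 (5.5 to 11 FPKM, 0.88) and the chromatin remodelling subunit BAZ1A (4.37 to 9.18 FPKM, 0.92) were the largest called rises of these lists beside ATF3.

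**Figure D5:**
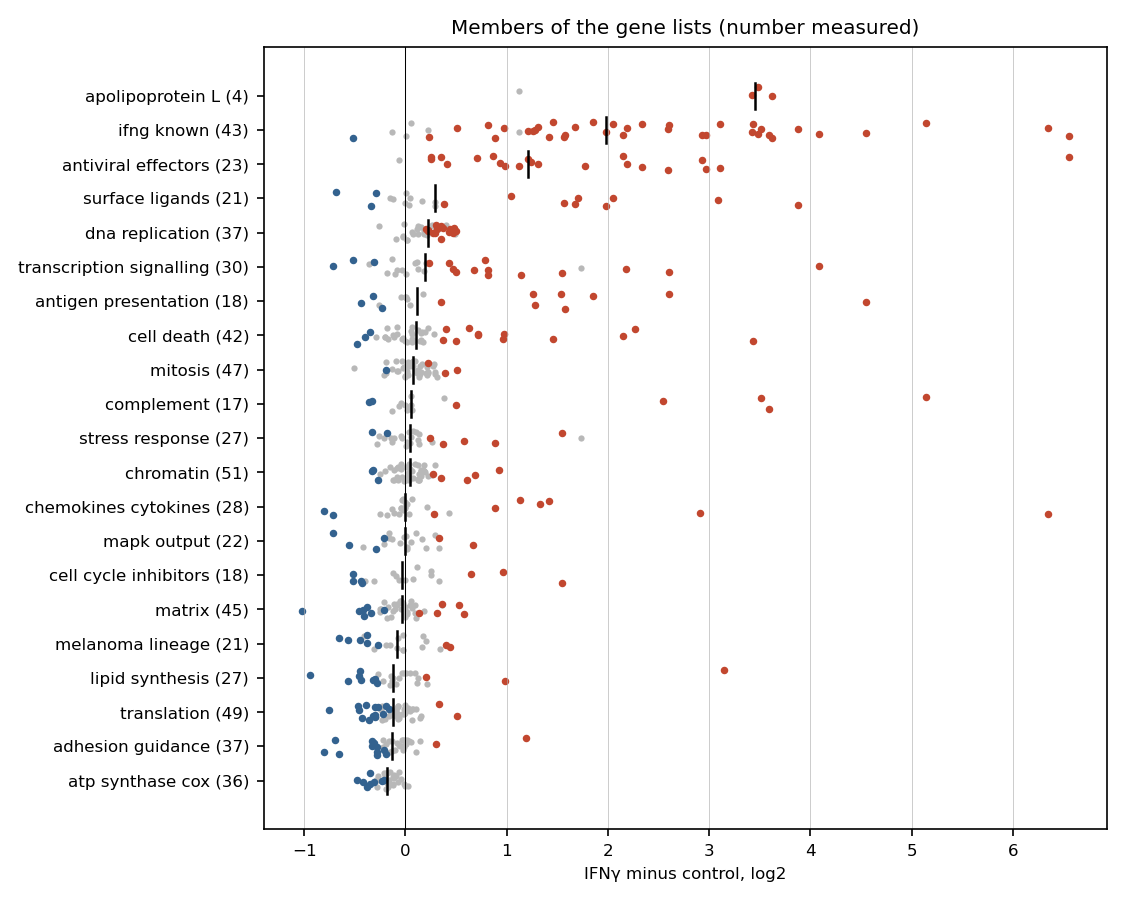
Change with IFNγ (IFNγ minus control, log2(FPKM + 1) scale, horizontal axis) of the measured members of the 21 gene lists, 1 point per gene, with the median as a black line and the number measured in brackets. Red and blue points were higher or lower at an adjusted p-value under 0.05 and grey points did not pass; the medians run from 3.45 for apolipoprotein L to -0.18 for ATP synthase and cytochrome c oxidase genes.

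Among the largest falls, DANCR, a long non-coding RNA that hosts small nucleolar RNAs, stood out by its level, going from 159, 170 and 163 FPKM to 54.7, 61.9 and 57.5 FPKM (-1.48 ± 0.06, adjusted p = 1.85e-05). CHI3L2, a chitinase-like lectin, fell from 5.85, 6.05 and 6.95 FPKM to 1.17, 1.80 and 1.5 FPKM (-1.56 ± 0.12), and the mitochondrial arginase ARG2 from 11.5, 12.4 and 10.6 FPKM to 4.15, 4.05 and 4.22 FPKM (-1.28 ± 0.07). The adhesion G protein-coupled receptor ADGRG1 (GPR56) fell from 28.7 to 13.5 FPKM (-1.04), the BMP antagonist CHRDL1 from 6.70 to 2.64 FPKM (-1.08), AZGP1 from 8.36 to 3.69 FPKM (-1.0), ADAM23 from 6.06 to 2.59 FPKM (-0.98) and ARPP21 from 2.86 to 0.885 FPKM (-1.04). The clathrin adaptor subunit AP1M2 was at 18.7, 20.2 and 18.1 FPKM and at 8.66, 11.3 and 5.67 FPKM (-1.11 ± 0.21, adjusted p = 0.0156). It was the only one of the 15 largest falls whose call was lost when a sample was left out, namely any of the control samples.

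The same contrast in cells given SB-3CT rests on 6 other samples, which share none with the IFNγ and control groups. There 386 genes (7.85%) were higher and 1608 (32.7%) lower with IFNγ at an adjusted p-value under 0.05. Of the 155 genes higher by over 1.5-fold with IFNγ alone, 133 were higher there and 1 was lower, and of the 74 genes lower by over 1.5-fold, 59 were lower there and 0 were higher. The gene that turned was CPA4, a carboxypeptidase, which went from 18.1 to 28.5 FPKM with IFNγ alone (0.62) and changed by -0.43 in the cells given SB-3CT (adjusted p = 0.00168). FABP7, among the 15 largest falls without SB-3CT, changed by 0.11 there (adjusted p = 0.467). The difference between these changes was not tested.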

How the data were processed

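RNA of A375 cells was sequenced with paired-end reads. The authors aligned reads with HISAT2 (2.0.5 per the submitters' processing notes) to hg19 and computed FPKM with StringTie (1.3.3). The deposited table holds log2 values, read from their range as log2(FPKM + 1) with a maximum of 12.16, which entered the tests unchanged; FPKM were obtained by inversion. FPKM are relative to the library total and give no read counts. The planned design assumed FPKM, so the log step fell away. There were 0 columns of values left unused. 4108 of 4918 genes were above 0 in all 6 samples.

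IFNγ and control samples (3 against 3) were compared in R 4.3.3 by limma 3.58.1 (eBayes with a variance trend after lmFit, two-sided, unpaired, pseudocount 1, no filter), with Benjamini-Hochberg adjustment over 4918 genes; the procedure was tested on simulated data. An exact permutation test of 3 against 3 cannot go below p = 0.1. Samples were grouped by their treatment label. Named were the 15 largest rises and 15 largest falls (adjusted p under 0.05, mean of at least 1 FPKM in the higher group, no overlap), up to 3 rises and 3 falls per list, CD274, CXCL10, and all members of lists of 6 or fewer; 68 further genes were chosen after their values were seen. Some genes that the rule names are not reported here. The contrast and the 21 hand-written lists were chosen with earlier results of these data known. Symbols were matched to GENCODE 44 on hg19 directly (4458) or by an older symbol (417), and 43 were not matched. Numbers behind ± without another label are standard errors on the log2 scale. Alternatives covered pseudocount, filter, scaling, length, samples in the fit, variance model, replicate block and each sample left out.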

Additional observations from a re-analysis of the deposited data

How the results depend on the processing

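Of the 180 genes named or tested by name, 175 passed as reported; 136 kept their direction and their side of the threshold under every one of 16 alternatives, 41 lost the call in at least 1, and 0 changed direction. Without a fold limit, testing each gene alone on FPKM with equal variances gave 266 higher and 338 lower genes, and leaving out 1 sample gave 271 to 488 higher and 286 to 531 lower genes. With the fold limit of 1.5, a pseudocount of 0.1 gave 237 higher and 184 lower genes, since fewer low values are damped, and leaving out 1 sample gave 141 to 167 and 65 to 84. With that pseudocount 127 of the genes lower by over 1.5-fold were also lower in the cells given SB-3CT. Of the 42 list counts, 22 moved by over 1.5 times in at least 1 alternative. The cause of these movements was not tested beyond what the settings do.

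Whether the replicate numbers pair the samples could not be settled with 3 samples per group. The deviations of same-numbered samples from their group means correlated at 0.10, 0.16 and 0.00. IFNγ samples 1 and 2 correlated best with the control sample of their own number, and IFNγ sample 3 did not. A replicate block gave 355 higher and 420 lower genes, and 154 and 72 with the fold limit. The table gives no read counts, so the counting error of low genes is unknown.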

Other observations

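Of 278 long non-coding RNAs measured, 11 (3.96%) were higher and 14 (5.04%) lower with IFNγ, and 62 had a mean of at least 1 FPKM, against 3158 of 4486 protein-coding genes, of which 402 (8.96%) were higher and 523 (11.7%) lower. The difference between the classes was not tested. The largest rise was in BANCR, a long non-coding RNA known from melanoma cells, which went from 1.11, 0.945 and 1.35 FPKM to 29.7, 46.1 and 35.7 FPKM (log2 change 4.14 ± 0.16, adjusted p = 2.13e-05). All 3 IFNγ samples lay far above the control samples. BISPR, which starts beside BST2 on the opposite strand, rose from 0.249, 0.0515 and 0.275 FPKM to 3.60, 2.25 and 3.99 FPKM (1.83 ± 0.17). CHKB-AS1 rose from 2.24, 0.957 and 1.72 FPKM to 3.09, 4.18 and 3.85 FPKM (0.86 ± 0.20, adjusted p = 0.0289), a call lost without control sample 3 or any 1 of the IFNγ samples. C5orf56, whose symbol was not matched and which is in neither class, rose from 0.655, 1.07 and 0.492 FPKM to 7.14, 6.82 and 9.44 FPKM (2.34 ± 0.16).

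Beside DANCR, the non-coding transcripts lower by over 1.5-fold were ARHGAP5-AS1 (10.6 to 4.31 FPKM, -1.12), ANO1-AS2 (4.31 to 2.01 FPKM, -0.82) and CASC10 (6.29 to 3.82 FPKM, -0.60). Since strand use in the counting is not given in the sources used here, reads of antisense transcripts cannot be told apart from those of genes they overlap.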
